A study of Mus musculus with 20 samples.

Results

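The HoxC cluster is one of the 4 *Hox* clusters of the mouse and lies on chromosome 15 from 102921103 to 103036852 (GRCm38/mm10, plus strand), a stretch of 115.8 kb. Its 9 protein-coding genes, *Hoxc4*, *Hoxc5*, *Hoxc6*, *Hoxc8*, *Hoxc9*, *Hoxc10*, *Hoxc11*, *Hoxc12* and *Hoxc13*, were taken by symbol from all count files, where they are 9 of 43280 listed genes, together with the accessible regions between the outer ends of *Hoxc13* and *Hoxc4*. The study asked how the Polycomb repressive complex PRC2 shapes the mesenchyme of the developing stomach and intestine. RNA-seq was obtained from GFP+ cells sorted at E13.5 from the stomach or the intestine, with 2 libraries in each of 4 groups, and ATAC-seq gave 1 list of accessible regions for each of the same 4 conditions. All embryonic groups carried *Bapx1-Cre* and the *Rosa26mTmG* reporter, so that cells with a history of Cre activity from the *Bapx1* locus are GFP+, and the *Eed* KO groups were in addition *Eed* fl/fl. Adult RNA-seq came from GFP+ cells of the intestine of mice about 10 weeks old that carried *Pdgfrβ-CreERT2* and *Rosa26mTmG*, either without a floxed *Eed* allele (control, labelled WT, 2 libraries) or with *Eed* fl/fl (*Eed* KO, 2 libraries), and per the methods these mice were given tamoxifen for 5 days and rested for 2 days. Cells outside the *Bapx1* lineage, or without Pdgfrβ-driven recombination in the adult, kept *Eed* and were removed only as far as the GFP sort removed them.

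*Hox* genes encode homeodomain transcription factors that give cells a position along the body axis. Within a cluster they are arranged in the order in which they are used, so that the genes at the 3′ end (*Hoxc4*, *Hoxc5*, *Hoxc6*) are active farther forward and the genes at the 5′ end (*Hoxc9* to *Hoxc13*, related to *Abdominal-B* of the fly) act farther back. In cells in front of a gene's domain, PRC2, of which EED is a core subunit, places the repressive mark H3K27me3 over that part of the cluster, and CpG-rich promoters are the usual sites of this mark.

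The sequences below are a promoter and accessible regions named in the peak results. The *Hoxc12* promoter was the only one of the 9 without a peak in the control stomach list, and the remaining pair are stretches shared by the peaks of both *Eed* KO lists with no peak in either control list. They are given 5′ to 3′ on the plus strand of GRCm38.p6 from RefSeq, and capitals mark CpG dinucleotides.
*Hoxc12* promoter, the 250 bases before the annotated start, chr15:102936507-102936756: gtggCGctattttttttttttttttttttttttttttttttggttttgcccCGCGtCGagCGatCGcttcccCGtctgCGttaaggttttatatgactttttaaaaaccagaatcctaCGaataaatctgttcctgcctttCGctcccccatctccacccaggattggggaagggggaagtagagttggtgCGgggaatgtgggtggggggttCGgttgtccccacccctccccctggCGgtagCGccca
Region between *Hoxc13* and *Hoxc12*, chr15:102932018-102932317: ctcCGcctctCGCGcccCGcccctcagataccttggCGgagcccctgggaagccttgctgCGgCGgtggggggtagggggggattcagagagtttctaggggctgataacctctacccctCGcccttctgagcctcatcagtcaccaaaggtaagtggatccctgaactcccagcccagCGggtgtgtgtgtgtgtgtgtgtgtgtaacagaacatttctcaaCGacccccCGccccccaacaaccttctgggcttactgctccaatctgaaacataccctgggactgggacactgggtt
Region upstream of *Mir196a-2*, chr15:102972394-102972614: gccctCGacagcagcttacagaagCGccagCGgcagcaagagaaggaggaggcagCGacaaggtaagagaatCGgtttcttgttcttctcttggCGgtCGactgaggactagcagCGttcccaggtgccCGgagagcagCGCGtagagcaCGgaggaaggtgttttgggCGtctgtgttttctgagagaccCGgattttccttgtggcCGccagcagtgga

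The *Hoxc12* stretch held 14 CpG dinucleotides in 250 bases. The region between *Hoxc13* and *Hoxc12* held 11 in 300 bases and the region upstream of *Mir196a-2* held 15 in 221 bases. Around the coding transcript starts of the 9 genes, windows of 250 bases before to 50 bases after the start held 5 to 26 CpG dinucleotides, with a median of 16, against a median of 7 over 32544 RefSeq promoter windows of the same length. *Hoxc8* had the most (26 CpG dinucleotides) and *Hoxc6* the fewest (5 CpG dinucleotides).

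Counts on genes ranged from 30236159 to 39606157 per embryonic library and from 11404712 to 15903642 per adult library. Levels are given in CPM, the count scaled to library size with TMM factors. Scaled by the gene total without TMM factors, 3 counts correspond to 0.0757 to 0.0992 CPM in an embryonic library. In an adult library they correspond to 0.189 to 0.263 CPM on that scale. With TMM factors, 3 counts of *Hoxc10* in adult *Eed* KO replicate 1 stood at 0.301 CPM. *Eed* stood at 40.1 and 41.5 CPM in the control stomach, 38.1 and 40.1 CPM in the control intestine, 11.5 and 7.40 CPM in the *Eed* KO stomach and 10.7 and 8.59 CPM in the *Eed* KO intestine. In the adult it stood at 29.7 and 33.4 CPM in control and 25.7 and 25.0 CPM in *Eed* KO libraries, a log2 fold change of −0.32 ± 0.21 (SE, edgeR, adjusted p = 0.32). In embryonic and adult libraries alike, the counts cover all *Eed* exons and not the deleted part alone. The share of sorted cells that kept *Eed* was not tested. Mesenchymal markers (*Pdgfra*, *Pdgfrb*, *Col1a1*, *Foxf1* and 5 others) summed to 13500 to 24800 CPM in the embryonic libraries, where none of the 9 was called between genotypes by edgeR or DESeq2 (3 had an unadjusted p under 0.05 in each organ). Spike-in RNA took 0.072% to 0.11% of counts in embryonic control and 0.0134% to 0.0403% in embryonic *Eed* KO libraries. When libraries were scaled by spike-in totals, the log2 fold change of the median gene between genotypes was 2.39 in the stomach, 1.85 in the intestine and −0.42 in the adult, and every change below is relative to the median gene. In sorted bulk samples, fewer cells of a type and less RNA per cell cannot be told apart. No source states that the 2 libraries of a group came from separate litters or days, and p-values measure the spread between these libraries.

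In the control stomach, counts came from the 3′ end of the cluster and hardly any from the rest, as the plot of levels by library shows. *Hoxc4* had 988 and 1086 counts, *Hoxc5* had 1523 and 1566, and *Hoxc6* had 88 and 123. *Hoxc8* had 0 and 2 counts, and *Hoxc9*, *Hoxc10*, *Hoxc11*, *Hoxc12* and *Hoxc13* had none in either library, which allows up to 0.0757 to 0.0879 CPM by the gene total. Per transcript length, *Hoxc5* was highest at 41.3 ± 3.04 TPM (SD, n = 2), followed by *Hoxc4* at 33.3 ± 0.879 TPM and *Hoxc6* at 3.59 ± 0.513 TPM, and none of these neighbouring levels overlapped between libraries.

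In the control intestine, the active part of the cluster reached as far as *Hoxc11*. *Hoxc8* was the most abundant HoxC transcript at 64.5 ± 1.35 TPM, followed by *Hoxc6* at 39.3 ± 3.0 TPM and *Hoxc5* at 37.9 ± 3.67 TPM, which overlapped each other, and by *Hoxc4* at 25.4 ± 0.247 TPM. *Hoxc9* and *Hoxc10* stood lower at 7.70 ± 0.582 and 6.57 ± 2.24 TPM and overlapped, *Hoxc11* was at 1.28 ± 0.45 TPM, and *Hoxc12* and *Hoxc13* had no counts.

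**Figure D1:**
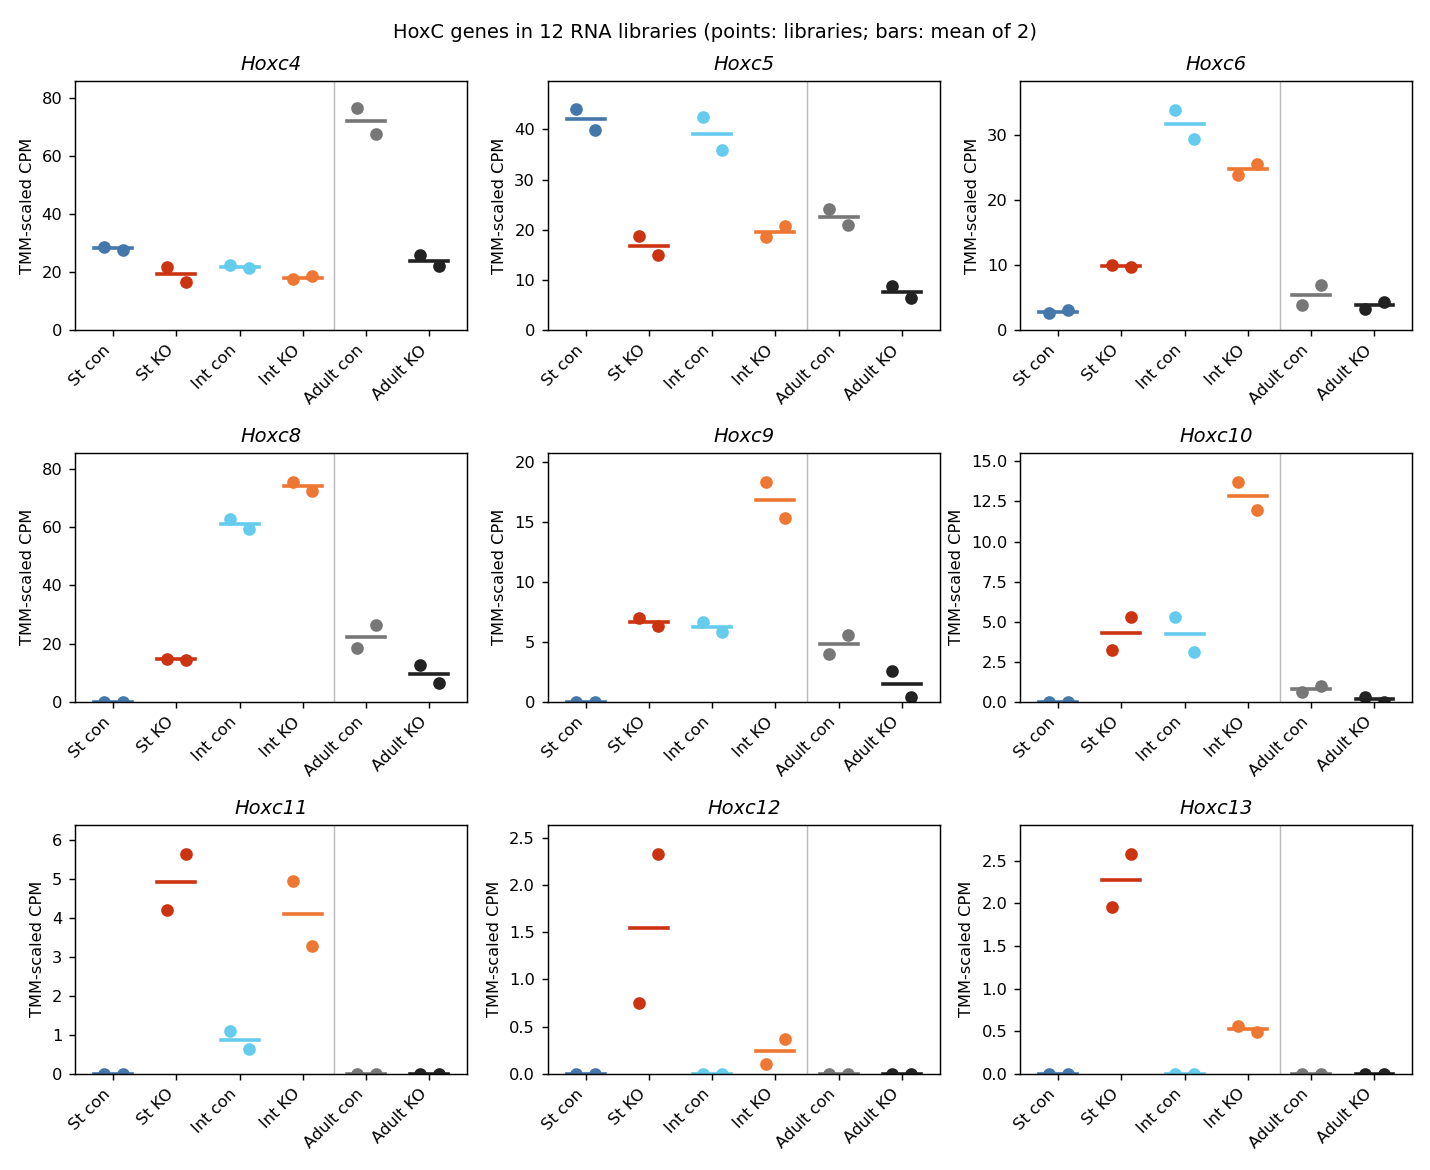
Level of each HoxC gene in TMM-scaled CPM (y axis, linear from 0) in the stomach (St) and intestine (Int) of control (con) and *Eed* KO embryos and in the adult intestine. Points are libraries and bars the mean of 2. *Hoxc8* to *Hoxc13* lie at or next to 0 in the control stomach and above it in both *Eed* KO stomach libraries.

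Between the control organs, 5 of the 9 genes were higher in the intestine and none was lower, beside 1.68% of 16218 tested genes called higher and 3.39% called lower. A gene was called where edgeR gave an adjusted p under 0.05 together with a log2 fold change beyond 1. DESeq2 also called 5, and 6 had an unadjusted p under 0.05. At the 3′ end, *Hoxc4* stood at 28.6 and 27.7 CPM in the stomach and, lower in both libraries, at 22.3 and 21.3 CPM in the intestine, with a log2 fold change of −0.37 ± 0.14 (SE, edgeR adjusted p = 0.22). *Hoxc5* stood at 44.1 and 39.9 CPM in the stomach and at 42.5 and 35.9 CPM in the intestine, so that the organs overlapped (−0.10 ± 0.15, edgeR adjusted p = 0.85). Neither passed the test.

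*Hoxc6*, which marks thoracic levels of the trunk, rose from 2.55 and 3.14 CPM in the stomach to 33.9 and 29.4 CPM in the intestine, an increase of 11.1-fold (log2 fold change 3.47 ± 0.15, edgeR adjusted p = 5.9e-05). *Hoxc8*, a central gene of the cluster, had 2 counts in the control stomach and 3994 in the control intestine, where it stood at 62.8 and 59.1 CPM. The intestine was 2250 times higher, between 624 and 18600 times by counting error at the 95% level, and the edgeR adjusted p was 1.7e-05. *Hoxc8* therefore went from next to no reads in one organ to the highest HoxC level in the other.

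*Hoxc9* had 6.69 and 5.82 CPM in the intestine and was at least 155-fold above the stomach (adjusted p = 0.00019), where the fold is a lower bound against 3 counts over both libraries of the group. *Hoxc10* had 5.28 and 3.13 CPM and was at least 106-fold higher (adjusted p = 0.0013). *Hoxc11* had 1.10 and 0.639 CPM and was at least 21.8-fold higher (adjusted p = 0.0059). No intestine library overlapped a stomach library for any of these 5 genes. The median log2 fold change of the 9 genes was 3.47, against 0.00 over all genes. The count of 5 was the same under each alternative run for this comparison.

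In the *Eed* KO stomach, the silent part of the cluster was transcribed along its whole length, and 7 of the 9 genes rose while 1 fell, beside 4.84% of all tested genes called higher and 0.808% called lower. DESeq2 called 8 of the 9 as well. This comparison uses the same control stomach libraries as the comparison of the control organs. The median log2 fold change of the 9 genes was 8.90, or 5.80 with the genes at 0 in control put at their lower bound, against 0.00 over all genes. The 6 genes with 3 or fewer counts in the control stomach, *Hoxc8* to *Hoxc13*, were all among the 7. Genes at this floor could only rise or stay, so their shared direction is no evidence of its own. *Hoxc12* and *Hoxc13*, without counts in both control organs, entered the test only through the *Eed* KO libraries.

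*Hoxc8* went from 0 and 2 counts to 549 and 526 counts (14.7 and 14.4 CPM), 537 times higher, between 148 and 4440 times by counting error at the 95% level (edgeR adjusted p = 5.5e-05). *Hoxc9* reached 6.95 and 6.34 CPM and was at least 163-fold higher (adjusted p = 0.00016). *Hoxc10* reached 3.25 and 5.32 CPM and was at least 105-fold higher (adjusted p = 0.0016). Both *Eed* KO libraries lay far above the counting limit of the control libraries for each of these genes.

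*Hoxc11* reached 4.21 and 5.65 CPM and was at least 121-fold higher (adjusted p = 0.0012). *Hoxc13*, a gene known for its role in hair and nail, reached 1.96 and 2.58 CPM and was at least 55.7-fold higher (adjusted p = 0.0027). *Hoxc12* had 28 and 85 counts (0.751 and 2.33 CPM) and was at least 37.7-fold higher (adjusted p = 0.03). *Hoxc12* was the least even of the 9 between the libraries, and its call was lost without either control stomach library (adjusted p = 0.12 and 0.13) and without *Eed* KO stomach replicate 2 (adjusted p = 0.094).

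At the 3′ end the direction differed. *Hoxc6* rose from 2.55 and 3.14 to 9.93 and 9.71 CPM, an increase of 3.44-fold (log2 fold change 1.78 ± 0.15, edgeR adjusted p = 0.00093). *Hoxc5* went from 44.1 and 39.9 to 18.7 and 15 CPM and was 2.5-fold lower relative to the median gene (−1.32 ± 0.15, adjusted p = 0.0029), whereas scaled by spike-in totals its log2 fold change was 1.01 (adjusted p = 0.19). *Hoxc4*, at 28.6 and 27.7 CPM in control and 21.8 and 16.5 CPM in *Eed* KO libraries, did not pass the test (−0.56 ± 0.14, adjusted p = 0.059), and scaled by spike-in totals its value was 1.75 (adjusted p = 0.027). The sign for *Hoxc4* and *Hoxc5* thus depends on the scaling, and the other 7 genes were higher under both.

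Levels along the cluster were graded in the *Eed* KO stomach. They ran from *Hoxc4* at 23.8 ± 4.0 TPM through *Hoxc5* at 17.4 ± 2.24, *Hoxc8* at 16.5 ± 0.228 and *Hoxc6* at 13.1 ± 0.168 TPM to *Hoxc9* at 8.75 ± 0.322 TPM. *Hoxc11* (7.84 ± 1.84 TPM) and *Hoxc10* (7.23 ± 2.67 TPM) overlapped *Hoxc9* and each other. *Hoxc12* (4.84 ± 3.61 TPM) overlapped *Hoxc10*, *Hoxc11* and *Hoxc13* (2.96 ± 0.655 TPM), the lowest on average, and *Hoxc5* and *Hoxc8* overlapped as well. The 9 genes summed to 70.8 to 75.3 CPM in the control libraries of the stomach and to 77.8 to 82.2 CPM in its *Eed* KO libraries.

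**Figure D2:**
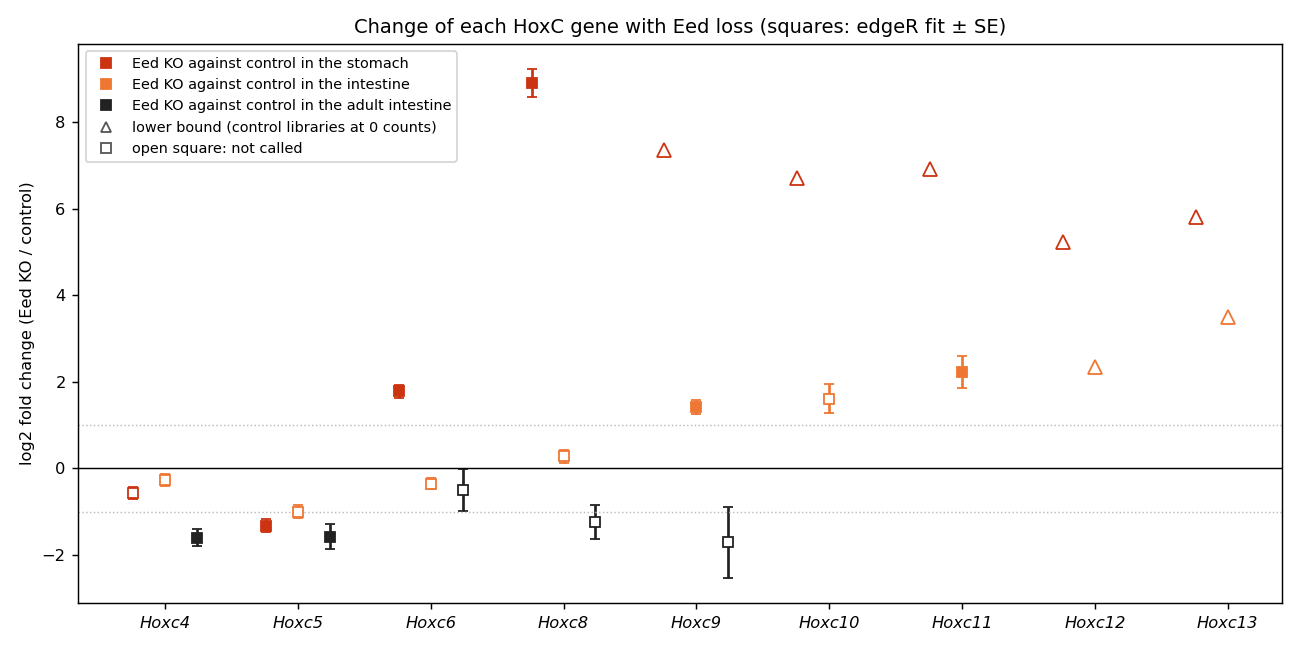
Log2 fold change of each HoxC gene between *Eed* KO and control (y axis) in the embryonic stomach, the embryonic intestine and the adult intestine. Squares are edgeR estimates with an SE from the F statistic of the fit of all libraries of that stage (2 a group), filled where called. Triangles are lower bounds for genes with no count in the control libraries, and dotted lines mark a log2 fold change of 1 in either direction. The bounds for *Hoxc9* to *Hoxc13* lie between 5.23 and 7.35 in the stomach.

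In the *Eed* KO intestine, the 5′ end of the cluster also rose, by less. Of the 9 genes, 3 were higher and none was lower, beside 2.38% of all tested genes called higher and 0.228% called lower. DESeq2 called 5, and 7 had an unadjusted p under 0.05 in either direction. *Hoxc13* went from no counts to 21 and 17 counts (0.554 and 0.485 CPM), at least 11.3-fold higher (edgeR adjusted p = 0.022). *Hoxc11* went from 1.10 and 0.639 CPM to 4.96 and 3.28 CPM, 4.69-fold higher (log2 fold change 2.23 ± 0.37, adjusted p = 0.032). *Hoxc9* went from 6.69 and 5.82 to 18.3 and 15.3 CPM, 2.68-fold higher (1.42 ± 0.17, adjusted p = 0.012).

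*Hoxc10* lay between them in the cluster, at 5.28 and 3.13 CPM in control and 13.7 and 12 CPM in *Eed* KO libraries, without overlap (log2 fold change 1.61 ± 0.33, edgeR adjusted p = 0.059). With DESeq2 its adjusted p was 0.00023. *Hoxc12*, without a count in control, had 4 and 13 counts after *Eed* loss, at least 5.07-fold higher but not past the test (adjusted p = 0.29). Each of *Hoxc9* to *Hoxc13* was therefore higher in both *Eed* KO libraries than in both control libraries, and 3 of the 5 passed the threshold of edgeR.

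The genes that were already well expressed in the control intestine did not pass both thresholds. *Hoxc8* had 62.8 and 59.1 CPM in control and 75.3 and 72.4 CPM in *Eed* KO libraries (log2 fold change 0.28 ± 0.15, edgeR adjusted p = 0.5). *Hoxc6* had 33.9 and 29.4 against 23.9 and 25.6 CPM (−0.35 ± 0.13, adjusted p = 0.28), and scaled by spike-in totals its value was 1.51. *Hoxc4* had 22.3 and 21.3 against 17.5 and 18.6 CPM (−0.27 ± 0.14, adjusted p = 0.5), and 1.60 by spike-in totals. *Hoxc5* had 42.5 and 35.9 against 18.5 and 20.7 CPM, a log2 fold change of −1.0 ± 0.15 (adjusted p = 0.016) that stopped just short of the fold threshold and was 0.88 by spike-in totals.

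The count of 3 rested on single libraries, since no HoxC gene was called without control intestine replicate 1 or without replicate 2 of that group, and 1 was called without *Eed* KO intestine replicate 1, while 5 were called with DESeq2. Without either control library the adjusted p of *Hoxc9*, *Hoxc11* and *Hoxc13* lay between 0.089 and 0.16. The median log2 fold change of the 9 genes was 1.42, against 0.01 over all genes, and the lower bounds of *Hoxc12* and *Hoxc13* left it at that value.

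The *Eed* KO organs still differed. With *Eed* deleted, 4 genes were higher in the intestine and 1 was higher in the stomach, beside 1.46% and 2.94% of all tested genes. *Hoxc8* had 75.3 and 72.4 CPM in the intestine against 14.7 and 14.4 CPM in the stomach, 5.07-fold higher (log2 fold change 2.34 ± 0.16, edgeR adjusted p = 0.00063). *Hoxc10* was 3.00-fold higher (1.59 ± 0.33, adjusted p = 0.04), *Hoxc9* 2.53-fold higher (1.34 ± 0.17, adjusted p = 0.0084) and *Hoxc6* 2.52-fold higher (1.34 ± 0.14, adjusted p = 0.0025). *Hoxc13* ran the other way, at 0.554 and 0.485 CPM in the intestine against 1.96 and 2.58 CPM in the stomach, and was 4.34-fold higher in the stomach (−2.12 ± 0.35, adjusted p = 0.027).

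*Hoxc12* was in the same direction as *Hoxc13* without overlap (−2.69 ± 0.80, adjusted p = 0.14), and *Hoxc4*, *Hoxc5* and *Hoxc11* overlapped between the *Eed* KO organs. Between 2 and 5 genes were called when 1 library of the embryonic set was left out, with 2 without *Eed* KO stomach replicate 2 and 3 without any one of the other 3 *Eed* KO libraries. None was called by edgeR when libraries were scaled by spike-in totals, where the log2 fold change was 2.09 for *Hoxc8* (adjusted p = 0.44), −2.52 for *Hoxc13* (0.31) and −3.03 for *Hoxc12* (0.14), while DESeq2 with its own scaling called 5.

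The difference between the *Eed* KO changes of the organs was tested as an interaction, at the adjusted p of 0.2 and log2 fold change of 1 that the study used. It was larger in the stomach for 5 of the 9 genes and in the intestine for none, beside 0.271% and 0.191% of all tested genes. The interaction equals the difference between the control organs minus that between the *Eed* KO organs. Its 5 genes are those called between the control organs, from the same control stomach libraries, so these results are not independent. *Hoxc8* differed by 8.62 ± 0.38 on the log2 scale (edgeR adjusted p = 0.00052) and *Hoxc6* by 2.14 ± 0.20 (adjusted p = 0.016). For *Hoxc9*, *Hoxc10* and *Hoxc11* the adjusted p was 0.0081, 0.07 and 0.073, and the size of the difference depends on the absent counts in the control stomach. *Hoxc12* and *Hoxc13* had no counts in either control organ, so a difference between their changes could not be estimated. Without control stomach replicate 2, the count of 5 became 3, and *Hoxc10* and *Hoxc11* were at an adjusted p of 0.23.

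Markers of some other tissues moved with the HoxC genes in the *Eed* KO embryos. A list of 5 limb and body wall genes (*Tbx4*, *Tbx5*, *Prrx1*, *Prrx2*, *Alx4*) summed to 29.2 to 39.5 CPM in the control stomach and 221 to 223 CPM in the *Eed* KO stomach, with all 5 called higher by edgeR. In the intestine it summed to 9.02 to 10.6 CPM in control and 38.3 to 48.4 CPM in *Eed* KO libraries, with 4 of 5 called and *Tbx5* at 0 in the control intestine. Sclerotome and cartilage markers summed to 19.2 to 24.5 against 47.9 to 66.2 CPM in the stomach. In the intestine they summed to 1.60 to 2.29 against 7.49 to 21.1 CPM, and 2 of 4 tested genes were called in each organ. *Pax1* was at 0 in both control organs. *Matn1* was at 0 in the control intestine and, the other way, in the *Eed* KO stomach but not in the control stomach. Endothelial markers summed to 14.9 to 15.3 against 24.6 to 44.9 CPM in the stomach (3 of 5 called) and 14.9 to 20.0 against 47.0 to 48.1 CPM in the intestine (2 of 5). Skeletal muscle markers summed to 0.535 to 0.638 against 2.03 to 2.52 CPM in the stomach, where both tested genes were called higher (*Myod1* by 2.76 and *Actn2* by 2.52 on the log2 scale, adjusted p = 0.008 and 0.047), and to 0.404 to 0.506 against 0.792 to 0.941 CPM in the intestine, where neither was called by edgeR or DESeq2 (1 had an unadjusted p under 0.05). Spinal cord neuron markers summed to 42.2 to 66.5 CPM in the control stomach against 35.2 to 48.1 CPM in the *Eed* KO stomach, and to 3.46 to 4.95 against 11.4 to 15.6 CPM in the intestine, with *Olig2* at 0 in all groups. *Isl1*, the 1 gene of this list that was tested, was called higher in the *Eed* KO intestine (log2 fold change 1.67, adjusted p = 0.035) and not in the *Eed* KO stomach (−0.41). Of 7 tested epithelial markers, 1 was called in each organ by edgeR, *Sox2* (3.82 in the stomach and 3.39 in the intestine), beside sums of 108 to 116 against 98.4 to 135 CPM in the stomach and 66.4 to 106 against 73.1 to 81.5 CPM in the intestine. The part of other cell types in the HoxC changes was not tested.

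Across the *Hox* clusters, the genes of paralogue groups 9 to 13 rose in the *Eed* KO stomach in each cluster, while the direction at the 3′ end varied. HoxC had 6 of 9 genes with 3 or fewer counts in the control stomach, and all 6 were called higher. HoxA had 3 of 11 and HoxB had 1 of 10, all of which were called higher. HoxD had 7 of 9, of which 5 were called higher, while all 9 HoxD genes had a positive log2 fold change. Genes chosen for so few counts in control could only rise or stay, so the choice fixed their direction. In the *Eed* KO stomach 4 genes of HoxA, 2 of HoxB and 6 of HoxD were called higher, and 3, 2 and 0 were called lower. The median log2 fold change was −0.56 for HoxA, −0.68 for HoxB and 8.50 for HoxD (4.95 with lower bounds).

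Per transcript length, *Hoxc10*, *Hoxc11* and *Hoxc13* took different places among their paralogues. *Hoxc9* (8.53 and 8.98 TPM) overlapped *Hoxd9* (8.52 and 13.9 TPM) in the *Eed* KO stomach. *Hoxc12* (2.29 and 7.40 TPM) overlapped *Hoxd12* (1.70 and 2.48 TPM) there. In the *Eed* KO stomach, *Hoxc13* had 2.5 and 3.43 TPM and lay below all libraries of *Hoxa13* (25.5 and 39.1 TPM), *Hoxb13* (20.7 and 26.2 TPM) and *Hoxd13* (32.7 and 42.8 TPM). *Hoxc10* had 5.34 and 9.12 TPM, below *Hoxa10* at 36.9 and 39.0 TPM and above *Hoxd10* at 1.90 and 3.36 TPM. *Hoxc11* had 6.55 and 9.14 TPM, below *Hoxa11* at 13.3 and 18.8 TPM and above *Hoxd11* at 0.920 and 1.00 TPM. In the control intestine, *Hoxc13* and *Hoxb13* had no counts, while *Hoxa13* was at 6.57 and 10.1 TPM and *Hoxd13* at 7.0 and 16.2 TPM. The HoxC genes of groups 10 and 11 thus lay between their HoxA and HoxD paralogues in the *Eed* KO stomach, and *Hoxc13* was the weakest of group 13 in each of the *Eed* KO organs.

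At the 3′ end, *Hoxc5* fell in the *Eed* KO stomach together with *Hoxa5* (log2 fold change −1.32) and *Hoxa4* (−1.66), which passed the test there, and *Hoxb5* had −0.90 without passing it. *Hoxa4*, *Hoxa5* and *Hoxb5* also passed in the intestine (−1.85, −1.13 and −1.19), where *Hoxc5* was at −1.0. All of these values are relative to the median gene, which itself stood at 2.39 and 1.85 in the organs by spike-in totals.

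**Figure D3:**
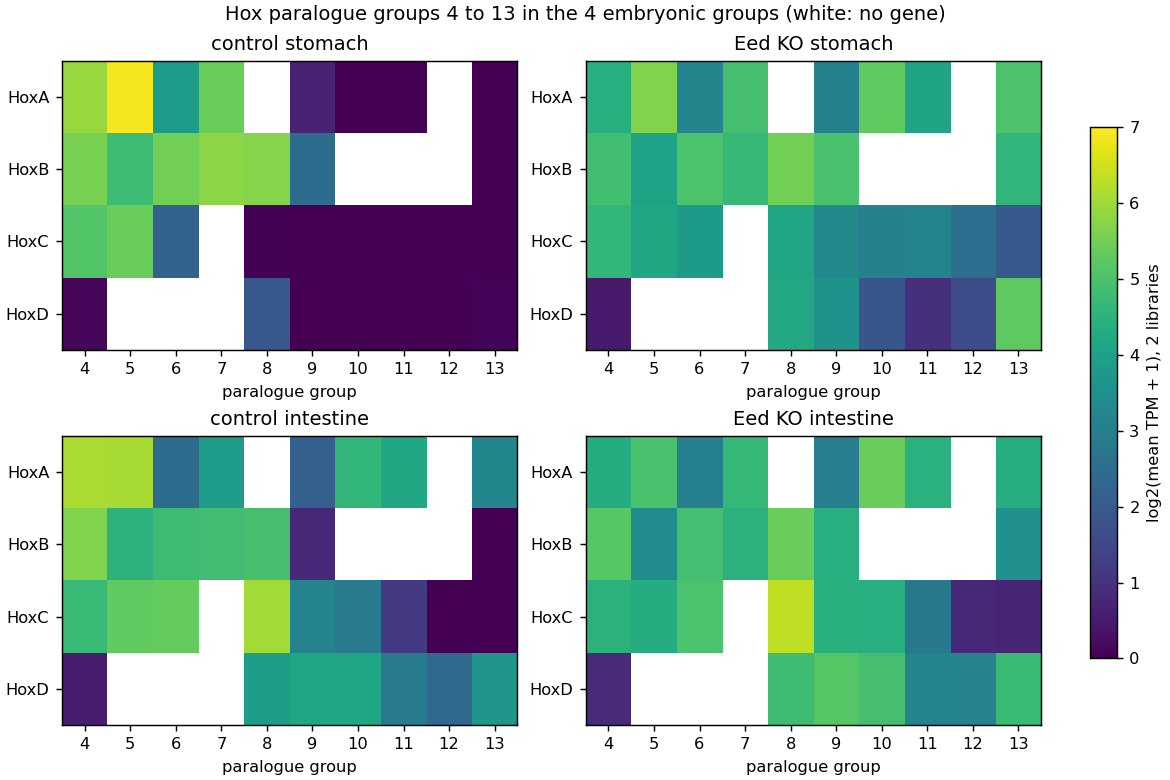
Mean level of the *Hox* genes of paralogue groups 4 to 13 (x axis) in the HoxA, HoxB, HoxC and HoxD clusters (rows) in each embryonic group, with the colour giving log2(mean TPM + 1) over 2 libraries. White squares have no gene. In the HoxC row the control stomach is at or next to 0 from group 8 on, and the *Eed* KO stomach is above 0 throughout.

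Over the 8 embryonic libraries, the mean log2 CPM of the 7 HoxC genes with at least 1 CPM on average was most like *Hoxd9* (Pearson r = 0.998), *Hoxd12* (r = 0.995), *Hoxa11os* (r = 0.994), *Hoxa11* (r = 0.993) and *Hoxa10* (r = 0.989), out of 13379 candidate genes outside the cluster. The 8 points are 4 pairs of replicates from the same libraries, so these values describe a shared pattern of group means.

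Other genes of the locus were then considered. *Hotair*, a noncoding RNA transcribed from the opposite strand between *Hoxc12* and *Hoxc11*, had no counts in the control stomach, 19 and 31 counts in the *Eed* KO stomach (at least 16.7-fold higher, edgeR adjusted p = 0.021), and in the intestine 7 and 2 counts with *Eed* and 21 and 7 counts without it (adjusted p = 0.5). The strand setting used to count the embryonic reads is not given in the sources used here, so counts of *Hotair* may include reads of the opposite strand. The hairpin genes *Mir196a-2* and *Mir615* had at most 2 counts in the 2 libraries of any embryonic group, in libraries of poly(A) RNA that do not capture mature miRNAs. Of 9 genes that flank the cluster, 8 were tested and none was called in either organ between genotypes by edgeR or DESeq2 (2 had an unadjusted p under 0.05 in the stomach and none in the intestine), with a median log2 fold change of −0.20 in the stomach and −0.02 in the intestine.

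Among 17 regulators and cofactors of *Hox* genes, 15 were tested. In the *Eed* KO stomach edgeR called 1 lower and none higher, beside 0.808% and 4.84% of all tested genes. DESeq2 called 2, and 8 of the 15 had an unadjusted p under 0.05 in either direction. The gene called lower by edgeR was *Cyp26a1*, which degrades retinoic acid (log2 fold change −1.87, edgeR adjusted p = 0.0035). It was also higher in the control stomach than in the control intestine (−4.35 for intestine against stomach, adjusted p = 0.00026). *Cdx1* was at 3.53 ± 0.94 in the *Eed* KO stomach without passing the test (edgeR adjusted p = 0.065), and 8 of the 15 had a positive value there. Of 22 Polycomb genes, *Bmi1*, a subunit of PRC1, was called higher in both organs (1.20 and 1.34) and *Eed* lower (−2.11 and −2.02), and no other was called by edgeR.

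In the adult intestine, the cluster was expressed from *Hoxc4* to *Hoxc10*, with no counts for *Hoxc11*, *Hoxc12* or *Hoxc13* in any of the 4 libraries. *Hoxc4* dominated at 72.0 ± 7.8 TPM in control, followed by *Hoxc8* at 20.2 ± 4.79 TPM and *Hoxc5* at 18.8 ± 2.21 TPM, which overlapped, by *Hoxc6* at 5.74 ± 2.19 TPM and *Hoxc9* at 5.03 ± 1.03 TPM, which also overlapped, and by *Hoxc10* at 1.05 ± 0.355 TPM. At E13.5 *Hoxc8* led in the control intestine at 64.5 TPM and *Hoxc4* stood at 25.4 TPM, but the ages differ in library kit and Cre line and were not tested against each other.

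No HoxC gene rose in the adult *Eed* KO cells. Of the 9 genes 5 had enough counts to be tested, and 2 of these fell and none rose, beside 7.23% of 15039 tested genes called lower and 12.3% called higher. DESeq2 called 3, and edgeR called 4 without *Eed* KO replicate 1 and 3 without control replicate 1. *Hoxc4* went from 76.5 and 67.5 CPM in control to 25.7 and 22.0 CPM in *Eed* KO libraries, 3.02-fold lower (log2 fold change −1.60 ± 0.20, edgeR adjusted p = 0.0022). *Hoxc5* went from 24.1 and 21 to 8.83 and 6.34 CPM, 2.98-fold lower (−1.58 ± 0.29, adjusted p = 0.0091).

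*Hoxc8* stood at 18.3 and 26.4 CPM in control and at 12.6 and 6.42 CPM in *Eed* KO libraries, without overlap (−1.24 ± 0.39, adjusted p = 0.058). *Hoxc9* had 4.02 and 5.54 against 2.61 and 0.387 CPM, also without overlap (−1.70 ± 0.82, adjusted p = 0.18), and without *Eed* KO replicate 1 its value was −3.62 (adjusted p = 0.016). *Hoxc6* overlapped between genotypes, at 3.88 and 6.94 against 3.31 and 4.33 CPM (−0.50 ± 0.48, adjusted p = 0.5). *Hoxc10*, below the filter, had 8 and 14 counts in control against 3 and 0 after *Eed* loss, which is 6.01 times higher in control, between 1.81 and 31.4 times by counting error.

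The median log2 fold change of the 5 tested genes was −1.58, against 0.00 over all genes. Mesenchymal markers moved with it: they summed to 11400 to 11900 CPM in adult control and 3490 to 4990 CPM in adult *Eed* KO libraries, with 5 of 8 tested markers called lower and a median of −1.46. Leukocyte markers (*Ptprc*, *Cd68*, *Csf1r*, *Cd52*), none at 0, summed to 134 to 163 CPM in control and 3030 to 3220 CPM in *Eed* KO libraries, with all 4 called higher. Smooth muscle markers summed to 1560 to 1880 and 2730 to 3210 CPM (3 of 5 called higher) and endothelial markers to 92.9 to 94.4 and 145 to 204 CPM (1 of 5, *Pecam1*). Enteric neural crest markers summed to 292 to 471 and 131 to 148 CPM, and of 5 tested *Elavl4* was called higher (5.59) and *Ednrb* lower (−1.66). The 10 most abundant genes took 10.9% to 11.2% of counts in control and 16.9% to 18.7% in *Eed* KO libraries. The part of cell makeup in the lower HoxC levels was not tested. The adult libraries were unstranded, so reads of *Hoxc4* and of an antisense transcript over it could not be told apart.

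Accessibility of the cluster was read from the ATAC peak lists, which hold no replicate values, so that counts and fold enrichments are given without a test. The promoter of nearly every HoxC gene, taken as 1000 bases on each side of the outermost annotated start, had a peak in every list, in tissues where the gene had counts and where it had none. In the control stomach 8 of 9 promoters had a peak, beside 46.3% of 41670 promoters of all genes. In the other lists all 9 did, beside 47.4% in the *Eed* KO stomach, 45.4% in the control intestine and 47.5% in the *Eed* KO intestine. *Hoxc10* and *Hoxc5* share a peak, since the outermost annotated start of *Hoxc5* lies within *Hoxc10*.

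Promoters of genes without counts in the control stomach were thus accessible there. The peak over the *Hoxc13* start had a fold enrichment of 4.75 over the MACS2 background in the control stomach, at a −log10 q of 14.9, and 5.01 in the *Eed* KO stomach. The peak over the *Hoxc10* start had 3.54 in the control stomach (−log10 q 6.83), 5.25 in the *Eed* KO stomach (31.2), 4.28 in the control intestine (16.5) and 5.06 in the *Eed* KO intestine (29.0). That over the *Hoxc8* start had 3.71, 4.70, 3.72 and 3.71 in the same order. At *Hoxc9* and *Hoxc11* the fold enrichment was lower in the *Eed* KO stomach (2.55 and 3.30) than in the control stomach (2.96 and 3.91).

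*Hoxc12* was the exception. No peak lay within 1000 bases of its start (chr15:102936757) in the control stomach list, while the *Eed* KO stomach list had one at chr15:102936702-102937541, enriched 2.60-fold at −log10 q 5.55. The control and *Eed* KO intestine lists had peaks there of 2.75-fold (−log10 q 2.78) and 2.37-fold (−log10 q 2.52). The *Eed* KO stomach peak overlaps only the end of the printed promoter stretch. Both intestine peaks (chr15:102937006-102937482 in control and chr15:102936973-102937345 in *Eed* KO) start beyond it, within the gene. The control intestine therefore had a peak at *Hoxc12* and no counts of it.

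Peaks covered 22.7% of the cluster in the control stomach, 27.7% in the *Eed* KO stomach, 22.8% in the control intestine and 27.1% in the *Eed* KO intestine, in 23, 25, 22 and 28 peaks. Their median fold enrichment was 3.16, 3.32, 3.12 and 2.94, in the same order, and the lists as a whole held 115789, 116842, 103808 and 119181 peaks. When only peaks of −log10 q 5 or more were kept, they covered 10.8% of the cluster in the control stomach, 23.5% in the *Eed* KO stomach, 16.9% in the control intestine and 18.9% in the *Eed* KO intestine. The median −log10 q over all peaks was 4.90 in the control and 5.53 in the *Eed* KO stomach list, and sequencing depth, on which q depends, is not given in the lists.

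Merging the lists gave 30 regions in the cluster, of which 17 were in all 4 lists. Of the 30, 6 (20.0%) were in the *Eed* KO stomach list and not in the control stomach list, beside 14.8% across the genome. The reverse held for 4 (13.3%), beside 13.8%. In both *Eed* KO lists and neither control list there were 3, or 10.0%, beside 4.18% of 162108 merged regions of the genome, and in both control lists and neither *Eed* KO list there was none, beside 2.15%. The first spans chr15:102931894-102932655, between *Hoxc13* and *Hoxc12*, with fold enrichments of 3.5 in the stomach list and 3.11 in the intestine list of the *Eed* KO. The second spans chr15:102972276-102972670, with 3.32 and 2.35, in an intron of the long noncoding *Hoxc5* transcript and, in its shared stretch printed above, 727 bases before the start of the *Mir196a-2* gene. The third spans chr15:102984637-102985101 at the 3′ end of *Hoxc9*, with 3.47 and 3.34. The absence of a peak from a list is a matter of its threshold, and the lists hold no signal outside peaks.

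In regions with a peak in both lists of an organ, the fold enrichment did not move as a whole. In the stomach it was higher in *Eed* KO at 9 of 19 regions (median log2 ratio −0.03), beside 51.1% of regions across the genome, and in the intestine at 7 of 19 (median −0.04), beside 41.3%. Among these the region beside *Hotair*, chr15:102942600-102943780, went from 3.26 (−log10 q 4.21) in the control stomach to 5.43 (28.5) in the *Eed* KO stomach, and was 4.52 and 4.41 in the control and *Eed* KO intestine. A region downstream of *Hoxc9*, chr15:102987132-102987750, went the other way, from 6.10 in the control stomach, the highest in the cluster in that list, to 3.44 in the *Eed* KO stomach.

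**Figure D4:**
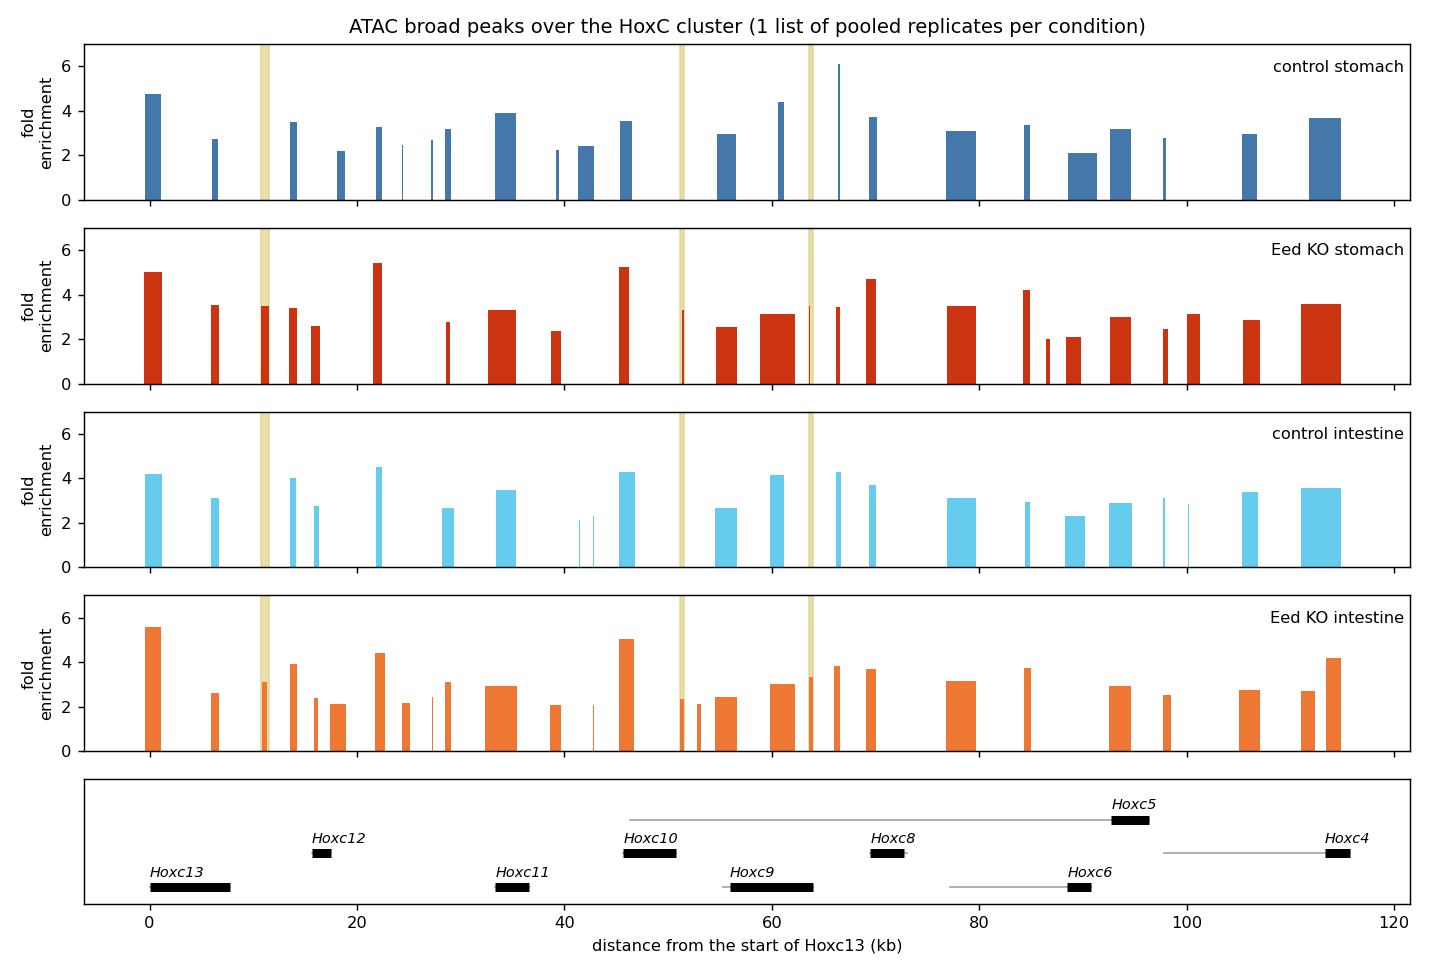
Peaks of each ATAC list along the cluster, in kb from the start of *Hoxc13* (x axis), with the fold enrichment over the MACS2 background as the height (y axis) and the genes below (black, span from the start of the innermost coding transcript; grey, whole gene model). Yellow bands mark the 3 regions present in both *Eed* KO lists and absent from both control lists.

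The gene models set a limit for single genes of the cluster. *Hoxc5* and *Hoxc10* share 166 exonic bases, chr15:102967443-102967608, so that reads there cannot be assigned to one of them, and *Hoxc4*, *Hoxc5*, *Hoxc6* and *Hoxc9* each have a transcript that starts upstream of the innermost coding one. In the control stomach *Hoxc10* had no counts while *Hoxc5* had 3089 in both libraries together.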

How the data were processed

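After trimming with Trimmomatic 0.32, RNA-seq reads were mapped by the authors with STAR 2.5.1b to GRCm38/mm10 and spike-in sequences, and the authors counted read pairs per gene of GENCODE vM4 with featureCounts. The embryonic libraries were stranded poly(A) libraries and the adult libraries unstranded low-input libraries. The deposited counts are whole numbers without normalization for 43280 genes and 99 spike-in transcripts. For ATAC-seq, the authors pooled the reads of replicates, aligned with BWA, and called broad peaks with MACS2 2.1.2. The deposited lists give for each peak a score, a fold enrichment, a −log10 p and a −log10 q, with 1 list per condition. Their −log10 q reaches below 2 for some peaks.

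Counts were filtered with filterByExpr, scaled with TMM and tested in edgeR 4.0.16 (R 4.3.3) by quasi-likelihood, with all 8 embryonic libraries in a fit of 4 group means and the 4 adult libraries in another, and Benjamini-Hochberg adjustment over all tested genes. Calls needed an adjusted p below 0.05 (0.2 for the interaction) as well as a log2 fold change beyond 1 in either direction. The SE of a log2 fold change is its size divided by the square root of the F statistic of its test. edgeR replaced the spike-in factors and DESeq2 of the study, because the package that computes the factors was not installed. Their number is also not given in the sources used here. DESeq2 1.42.0, with and without 1 spike-in factor, and other scalings were alternatives. Groups at 0 gave lower bounds against 3 counts over their 2 libraries, and intervals cover counting error only. TPM used exonic lengths from the adult files. Peaks were merged with bedtools 2.31.1 and overlaps needed at least 1 base. Tests were checked on simulated data. The members and gene lists were chosen with earlier results of these data known. The named genes were the 9 HoxC genes, *Eed*, genes within the cluster, 9 flanking genes, *Hox* paralogues, lists of regulators, Polycomb genes and cell type markers, and the 5 genes most alike in pattern. Of the 9 genes, 1 has an entry in the RefSeq promoter table used, so the printed promoter sequence was read from the GRCm38.p6 genome.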

Additional observations from a re-analysis of the deposited data

Results flagged for a closer look

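The *Eed* KO change differed between the organs in the interaction test of edgeR for 5 HoxC genes. The change in the stomach minus that in the intestine was 8.62 on the log2 scale for *Hoxc8* (adjusted p = 0.00052), 2.14 for *Hoxc6* (0.016), 9.47 for *Hoxc9* (0.0081), 8.65 for *Hoxc10* (0.07) and 8.23 for *Hoxc11* (0.073). In both *Eed* KO stomach libraries each of these genes lay above both control stomach libraries. They are the 5 genes called between the control organs, and both tests use the same control stomach libraries. For *Hoxc9*, *Hoxc10* and *Hoxc11* the sizes are fitted values against no counts.

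*Hoxc8*, *Hoxc9* and *Hoxc10* went in opposite directions in the embryonic and the adult intestine without overlap of libraries, a difference that was not tested. Separation of so few libraries is a weak criterion, and its share over all genes was not determined. *Hoxc8* was higher in both *Eed* KO libraries at E13.5 (log2 fold change 0.28, edgeR adjusted p = 0.5) and lower in both in the adult (−1.24, adjusted p = 0.058). *Hoxc9* was higher in the embryo (1.42, adjusted p = 0.012) and lower in the adult (−1.70, adjusted p = 0.18). *Hoxc10* was higher in the embryo (1.61, adjusted p = 0.059) and in the adult stood at 0.783 ± 0.28 CPM in control against 0.151 ± 0.213 CPM in *Eed* KO libraries. The stages differ in the Cre line, the library kit and the cell makeup, which cannot be told apart from age.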

How the results depend on the processing

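Of 702 log2 fold changes of HoxC genes recomputed under the alternatives, 635 kept their direction and their side of the threshold. For the comparison of the control organs the count of 5 called genes held throughout, and for *Eed* KO against control in the stomach it was 7 to 8. With spike-in totals the genes called in the stomach changed, since *Hoxc5* was no longer called lower and *Hoxc4* was called higher. In the intestine 3 genes were called, 5 without a filter on low counts, 5 with DESeq2, 7 with spike-in totals, and 0 to 3 with 1 library left out. Between the *Eed* KO organs 5 were called, 0 with spike-in totals and 2 to 5 with 1 library left out. For the interaction, 3 to 5 were called with 1 library left out. In the adult 2 were called, 4 without a filter, 4 with spike-in totals and 2 to 4 with 1 library left out. Over all genes, spike-in totals called 15438 of 16218 in the stomach, so the HoxC count under that scaling does not stand out there. They called 13688 of 16218 in the intestine, so 7 of the 9 HoxC genes is near that share. The main fit called 423 genes there, 800 were called without a filter and 685 with DESeq2. In the adult these totals were 2944 in the main fit, 3791 without a filter and 2475 with spike-in totals. With a −log10 q of at least 5, peaks covered 10.8% of the cluster in the control stomach. A promoter placed at the innermost coding transcript start, chosen after seeing the data, left 8 of 9 promoters with a peak in the *Eed* KO intestine. Apart from the filter, where more genes enter the test, and the left-out libraries, the cause was not tested.

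Spike-in totals turned the log2 fold change of *Hoxc5* to 0.21 between the control organs, 1.01 in the stomach, 0.88 in the intestine and 0.13 in the interaction, that of *Hoxc4* to 1.75, 1.60 and 0.15 in the last 3, and that of *Hoxc6* to 1.51 in the intestine. With 1 library left out, the control organs gave −0.22 to 0.02 for *Hoxc5*, and the *Eed* KO organs gave −0.27 to 0.13 for *Hoxc4* and −0.58 to 0.01 for *Hoxc11*. With the replicate block, *Hoxc10* in the intestine passed the test (1.61, edgeR adjusted p = 0.041), as did *Hoxc12* between the *Eed* KO organs (−2.69, adjusted p = 0.016, and 0.0054 with the block by embryo pool). The deviations of same-numbered libraries from their group means correlated at 0.234 (control stomach with control intestine), 0.606 (the same for *Eed* KO) and 0.0309 to 0.122 (across genotypes), and the labels do not state that a number marks shared embryos.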

Other observations

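When the control organs were compared, edgeR called 3.39% of all tested genes lower and 1.68% higher in the intestine. Among the 15 tested regulators and cofactors of *Hox* genes, it called 3 lower and none higher there. They were the retinoic acid receptor genes *Rarb* (log2 fold change −1.44) and *Rarg* (−1.01) and *Cyp26a1* (−4.35). In the *Eed* KO intestine no regulator was called against control by edgeR or DESeq2, and 2 had an unadjusted p under 0.05.

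In the adult *Eed* KO cells, edgeR called 12.3% of 15039 tested genes higher and 7.23% lower. Beside these shares, 2 of 9 genes that flank the cluster were higher, *Gpr84*, a receptor gene of myeloid cells (3.08), and *Zfp385a* (1.33), and no HoxC gene was. Of 13 tested regulators, *Cdx1*, a caudal-type homeobox gene of the intestinal epithelium, was higher (4.30) and *Pknox2* was lower (−1.87). Of 21 tested Polycomb and related genes, *Kdm6b*, which encodes an H3K27 demethylase, was higher (2.23) and *Pcgf2* was lower (−1.26). Single calls in lists of 13 and 21 genes do not stand out from the shares over all genes. Leukocyte markers were higher in the same libraries, and their part in these values was not tested.

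Markers of the enteric neural crest summed to 55.3 to 66.7 CPM in the control stomach and 195 to 208 CPM in the control intestine, where *Hoxc6* and *Hoxc8* to *Hoxc11* were higher too. Between genotypes they ran from 55.3 to 66.7 to 65.8 to 75.1 CPM in the stomach and from 195 to 208 to 97.3 to 169 CPM in the intestine, and none of 7 was called by edgeR or DESeq2 (none in the stomach and 2 in the intestine had an unadjusted p under 0.05). Their part in the HoxC levels was not tested. Mesothelial markers summed to 425 to 442 against 289 to 369 CPM in the control and *Eed* KO stomach and to 262 to 402 against 281 to 299 CPM in the intestine, and none of 4 was called between genotypes by edgeR or DESeq2 (2 in the stomach and 1 in the intestine had an unadjusted p under 0.05). DESeq2 called 2 of 7 epithelial markers in the stomach and 3 of 7 in the intestine, where edgeR called 1 in each.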
